A study of Mus musculus with 17 samples.

Results

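Of the 31647 features counted in the heart libraries of this myocardial infarction (MI) experiment, 10 were messenger RNAs encoded by the mitochondrial genome and were chosen by name: mt-Nd1, mt-Nd2, mt-Nd4, mt-Nd5, mt-Nd6, mt-Cytb, mt-Co1, mt-Co2, mt-Co3 and mt-Atp6. They belong to the 37 features annotated on the mitochondrial chromosome, of which 13 code for proteins. The choice followed gene names and not a threshold on a value, although earlier results of these data were known when it was made, and all 10 passed the filter on low counts. The left ventricle (LV) of 8 sham-operated male wild-type C57BL/6J mice was compared with the infarct zone (IZ) of 9 mice of the same strain and sex, both at 5 days after surgery at an age of 8 to 11 weeks. In the IZ mice the left anterior descending coronary artery was tied permanently, without reperfusion, whereas sham mice had the same operation without the tie. The sham tissue was LV and the IZ was cut out of the LV, so the piece of tissue taken differed between the groups as well. RNA was measured with MACE, a sequencing method that primes on poly(A) and counts unique molecules from the 3′ ends of transcripts.

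The mitochondrial genome is a small circle that is copied into RNA from both strands as long precursors. Most of its messenger RNAs are released by cutting out the transfer RNAs that lie between them, and they then receive a poly(A) tail. Every protein it encodes is a subunit of the respiratory chain or of ATP synthase, and each of these complexes also needs subunits encoded in the nucleus. Heart muscle cells are packed with mitochondria, which supply most of their ATP. The mt-Nd genes encode core subunits of complex I, NADH dehydrogenase. mt-Cytb encodes cytochrome b of complex III, mt-Co1 to mt-Co3 the catalytic core of complex IV, cytochrome c oxidase, and mt-Atp6 the proton channel subunit of complex V, ATP synthase.

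The annotated ends of the 10 genes are shown because this method reads the 3′ end of transcripts. Several of these ends also recur in the nuclear genome. Where the messenger RNAs themselves end was not examined. The sequences were taken from GENCODE M21 transcripts (GRCm38) and run 5′ to 3′ over the last 30 bases of each gene, with the encoded stop letters in capitals.
mt-Nd1: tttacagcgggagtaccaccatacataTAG
mt-Nd2: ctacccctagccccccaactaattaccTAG
mt-Nd4: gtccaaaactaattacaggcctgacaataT
mt-Nd5: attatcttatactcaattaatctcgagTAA
mt-Nd6: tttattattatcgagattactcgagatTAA
mt-Cytb: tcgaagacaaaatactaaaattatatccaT
mt-Co1: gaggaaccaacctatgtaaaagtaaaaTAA
mt-Co2: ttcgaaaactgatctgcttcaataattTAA
mt-Co3: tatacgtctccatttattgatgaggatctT
mt-Atp6: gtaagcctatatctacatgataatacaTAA
As annotated, mt-Nd4, mt-Cytb and mt-Co3 ended in a lone T, an incomplete stop codon that the poly(A) tail completes. The last 2 annotated bases of mt-Nd1 and of mt-Nd2 also belonged to the transfer RNAs mt-Ti and mt-Tw on the same strand. On chromosome M, mt-Nd6 was the only member transcribed from the opposite strand (13552–14070, minus strand), and it overlapped the end of mt-Nd5 (11742–13565) by 14 bases. mt-Atp6 (7927–8607) and mt-Co3 (8607–9390) shared 1 base, so no transfer RNA lies between them. The other members lay at 2751–3707 (mt-Nd1), 3914–4951 (mt-Nd2), 5328–6872 (mt-Co1), 7013–7696 (mt-Co2), 10167–11544 (mt-Nd4) and 14145–15288 (mt-Cytb), each as a coding exon without introns.

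Nuclear copies of mitochondrial sequence took a large part of the reads. A search of all annotated transcripts found 9 pseudogenes that matched a member at 95% identity or more over at least 50% of their own length. A block on chromosome 1 (24611535–24616197, minus strand) held Gm28439, Gm28437, Gm10925, Gm28661 and Gm29216, which match mt-Nd4, mt-Co3, mt-Atp6, mt-Co2 and mt-Co1 in that order. A block on chromosome 2 (22587291–22590533, minus strand) held Gm13341, Gm13340 and Gm13339, which match mt-Co2, mt-Co1 and mt-Nd2. Gm4076 on chromosome 13 (85126550–85127514, minus strand) matched mt-Nd5. No annotated copy was found for mt-Nd1, mt-Nd6 or mt-Cytb.

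How much was counted on a copy is set beside its sequence near the 3′ end. The windows below hold 60 bases that stop 3 bases before the end of the member, with a base of the copy that differs from the member in capitals.
mt-Atp6: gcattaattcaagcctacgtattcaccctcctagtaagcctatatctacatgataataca
Gm10925: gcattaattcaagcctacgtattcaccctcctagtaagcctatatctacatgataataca
mt-Co1: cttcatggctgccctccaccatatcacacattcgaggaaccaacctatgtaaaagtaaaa
Gm29216: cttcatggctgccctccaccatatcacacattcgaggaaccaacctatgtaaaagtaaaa
Gm13340: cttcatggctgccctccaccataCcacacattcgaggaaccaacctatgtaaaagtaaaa
mt-Nd2: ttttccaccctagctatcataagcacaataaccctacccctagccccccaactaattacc
Gm13339: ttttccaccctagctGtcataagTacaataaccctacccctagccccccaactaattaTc
Gm10925 and Gm29216 were identical to their member in this window, as were Gm28437 (mt-Co3), Gm28661 and Gm13341 (both mt-Co2). Gm13340 had 1 mismatch and Gm13339 had 3. The match of Gm28439 stopped 502 bases short of the end of mt-Nd4, and that of Gm4076 stopped 165 bases short of the end of mt-Nd5.

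In the sham libraries, Gm28437 held 52.7% ± 0.497 (SD, n = 8) of the counts of the copy plus mt-Co3. The corresponding values were 49.3% ± 0.241 for Gm28661, 48.5% ± 0.373 for Gm10925 and 48.1% ± 0.296 for Gm29216. These 4 features of the chromosome 1 block thus took about as many counts as the member they match. Gm13341, identical to mt-Co2 in the window but matching it at 95.9% over its whole length, held 29.1% ± 1.83. Gm13340 held 26.8% ± 1.69 and Gm13339 16.7% ± 0.537. The 2 copies whose match stopped short of the end held little, 2.72% ± 0.176 for Gm28439 and 0.476% ± 0.107 for Gm4076. How reads that fit more than 1 place were assigned is not given in the sources used here.

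In the IZ the percentages were close to these. There (n = 9), Gm28437 held 53.4% ± 0.475, Gm28661 49.0% ± 0.558, Gm10925 48.3% ± 0.345 and Gm29216 48.2% ± 0.303. Gm13341 was the most variable, at 32.3% ± 5.60 in the IZ with a range from 25.2% to 40.3%. Gm28439 was the only copy whose groups did not overlap, with 2.51% to 3.04% in sham and 1.83% to 2.37% in the IZ. The copies together made up 15.1% ± 0.681 of all counts in sham and 3.46% ± 2.11 in the IZ. Where a call or an order changed once copy counts were added to their member, it is given both ways.

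**Figure D1:**
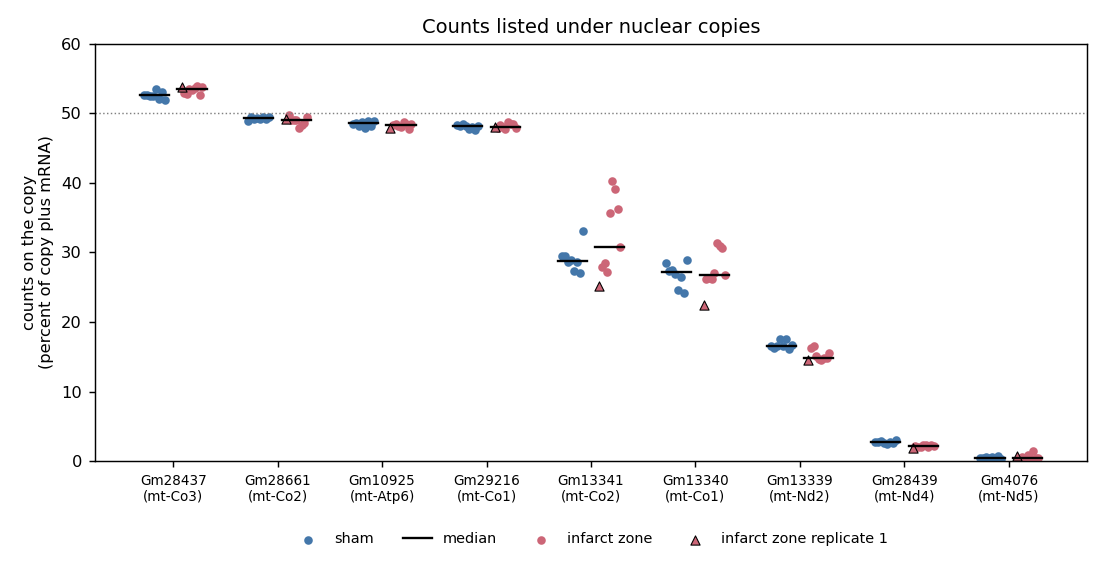
Percent of counts listed under each nuclear copy, out of the copy plus the mitochondrial mRNA named below it, with 1 point per library (8 sham, 9 infarct zone), black lines at the group medians and a dotted line at 50%. Copies of mt-Co3, mt-Co2, mt-Atp6 and mt-Co1 in the chromosome 1 block sit close to the dotted line in both groups, while Gm28439 and Gm4076 sit near 0.

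Library totals ran from 1820809 to 4257919 counts in sham and from 1237675 to 4738307 in the IZ. Of the IZ libraries, replicate 1 stood apart: its 10 cardiomyocyte markers summed to 30673 CPM (counts scaled to library size with TMM factors), against 2941 to 6988 in the other 8 and 64675 to 79114 in sham. Its 6 macrophage and monocyte markers summed to 1838 CPM, below the 3277 to 4992 of the other IZ libraries and above the 331 to 489 of sham. It was kept, and results that rest on it are given with and without it.

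The 10 mRNAs made up 22.6% ± 2.69 of all counts in sham (n = 8; lowest 18.8%, median 22.2%, highest 26.9%). In the IZ they made up 5.397% ± 3.99 (n = 9; lowest 3.07%, median 4.30%, highest 15.9%). All 9 IZ libraries lay below all 8 sham libraries, and replicate 1 was the highest of them by a wide margin. Without replicate 1 the IZ mean was 4.09% ± 0.728, with a range from 3.07% to 5.14%. With the copies added, the percentages were 37.8% ± 3.15 in sham and 8.85% ± 6.10 in the IZ. All 37 mitochondrial features together, ribosomal and transfer RNAs included, made up 27.5% ± 3.08 and 6.95% ± 4.76.

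By complex, the largest part of the library in sham went to the 3 complex IV mRNAs, with 10.4% ± 0.486 of all counts. The 5 complex I mRNAs took 6.71% ± 1.84, the complex III mRNA 3.70% ± 0.425 and the complex V mRNA 1.87% ± 0.274. In the IZ the same order held, with 2.25% ± 1.45 for complex IV, 1.70% ± 1.604 for complex I, 0.909% ± 0.603 for complex III and 0.542% ± 0.338 for complex V. Without replicate 1 these IZ values were 1.77%, 1.17%, 0.712% and 0.432%. Over the sham libraries the complex IV part ran from 9.35% to 10.9% and the complex I part from 4.65% to 9.81%. These percentages leave the copies out. With copies added, the mean shares of complexes III and V changed order in the IZ, as given below.

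**Figure D2:**
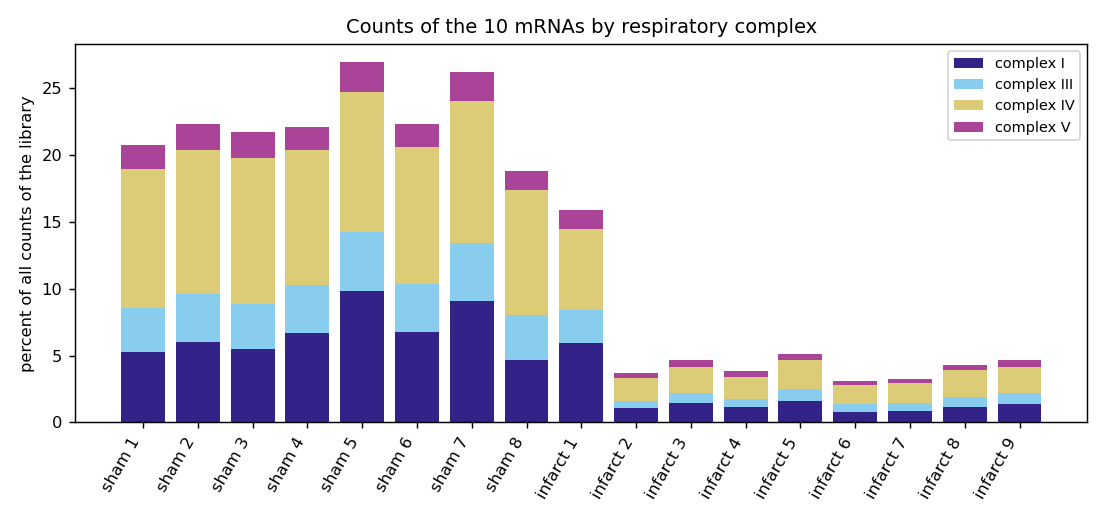
Counts of the 10 mitochondrially encoded mRNAs as percent of all counts of the library, stacked by respiratory complex, with 1 bar per library (8 sham, 9 infarct zone). Sham bars reach 18.8% to 26.9%, the bar of infarct zone replicate 1 reaches 15.9% and the other infarct zone bars 3.07% to 5.14%.

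Whether each mRNA differed between IZ and sham was tested in the fit across all features (edgeR quasi-likelihood test with Benjamini-Hochberg adjustment over 12301 features). All 10 mRNAs fell in the IZ, with log2 fold changes from -3.31 to -2.76 and a median of -3.003. In this comparison 69.5% of all tested features passed the adjusted threshold of 0.05, 33.1% in the lower direction. For all 10, every IZ library was below every sham library, which was true of 16.5% of the tested features. Features that passed with a log2 fold change under -2 made up 7.89% of those tested. In bulk tissue, fewer cells of a type and less RNA per cell cannot be told apart.

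Among the complex I subunits, mt-Nd1 ran from 17972 to 49218 CPM in sham (median 29628) and from 1398 to 16750 CPM in the IZ (median 2328). Its highest IZ library, replicate 1, came within reach of the lowest sham library, and the next highest IZ library was at 3288 CPM. The log2 fold change of mt-Nd1 was -3.02 (SE 0.46, adjusted p = 3.9e-06 by edgeR's quasi-likelihood test). mt-Nd2 ran from 15793 to 33322 CPM in sham and from 1281 to 12490 CPM in the IZ (medians 21302 and 1826), a log2 fold change of -2.91 (SE 0.44). mt-Nd4, part of the proton-pumping arm of the complex, ran from 23175 to 56890 CPM in sham and from 2123 to 21851 CPM in the IZ (medians 32170 and 3012), a log2 fold change of -2.82 (SE 0.46). These 3 mRNAs varied widely even among sham libraries, with coefficients of variation from 29.3% to 35.9%.

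mt-Nd5 and mt-Nd6 were counted far less often. Counts were per annotated gene, and whether these mRNAs run past its annotated end was not examined. mt-Nd5, the other large subunit of the membrane arm, had 2793 to 5865 CPM in sham and 171 to 1851 CPM in the IZ (medians 3483 and 277), a log2 fold change of -3.14 (SE 0.42). mt-Nd6, the member from the opposite strand, had 4012 to 8952 CPM in sham and 342 to 3373 CPM in the IZ (medians 5107 and 510), a log2 fold change of -2.77 (SE 0.41). The lowest raw count of any member in any library was 326, for mt-Nd5 in IZ replicate 7. Counting error alone was therefore small, with an average coefficient of variation of 1.28% for mt-Nd5 in sham and 3.39% in the IZ.

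mt-Cytb, the complex III member, had 46609 to 70020 CPM in sham (median 52163) and 3801 to 23675 CPM in the IZ (median 5055). The groups did not overlap, and the log2 fold change was -2.99 (SE 0.39, adjusted p = 4.84e-07 by edgeR's quasi-likelihood test).

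Of the complex IV core, mt-Co1 was the steadiest of the 10 across sham mice, with 63103 ± 3189 CPM (SD, n = 8) and a coefficient of variation of 5.05%. Its IZ libraries ran from 4041 to 25479 CPM (median 5040), a log2 fold change of -3.13 (SE 0.40). mt-Co2 had 30656 to 46040 CPM in sham and 2422 to 15376 CPM in the IZ (medians 36350 and 3443), a log2 fold change of -3.04 (SE 0.37). mt-Co3 had 40849 to 60766 CPM in sham (median 54440) and 2801 to 16852 CPM in the IZ (median 4430). Its log2 fold change, -3.31 (SE 0.38, adjusted p = 5.45e-08 by edgeR's quasi-likelihood test), was the lowest of the 10 in this fit. mt-Nd5 was the lowest without IZ replicate 1 (-3.92), with the replicate number as a block (-3.64) and in DESeq2's Wald test (-3.18).

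mt-Atp6, the complex V member, had 19631 to 35746 CPM in sham (median 26727) and 1890 to 13465 CPM in the IZ (median 3020). Its log2 fold change, -2.76 (SE 0.36, adjusted p = 4.65e-07 by edgeR's quasi-likelihood test), was the closest to 0 of the 10. This value lay within its own SE of the value of every other member except mt-Nd5 and mt-Co3. As a ratio of group means, the sham level was between 6.78 times (mt-Atp6) and 9.89 times (mt-Co3) the IZ level. Without IZ replicate 1 the ratios ran from 9.47 (mt-Atp6) to 14.7 (mt-Nd5), and the median log2 fold change was -3.64.

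**Figure D3:**
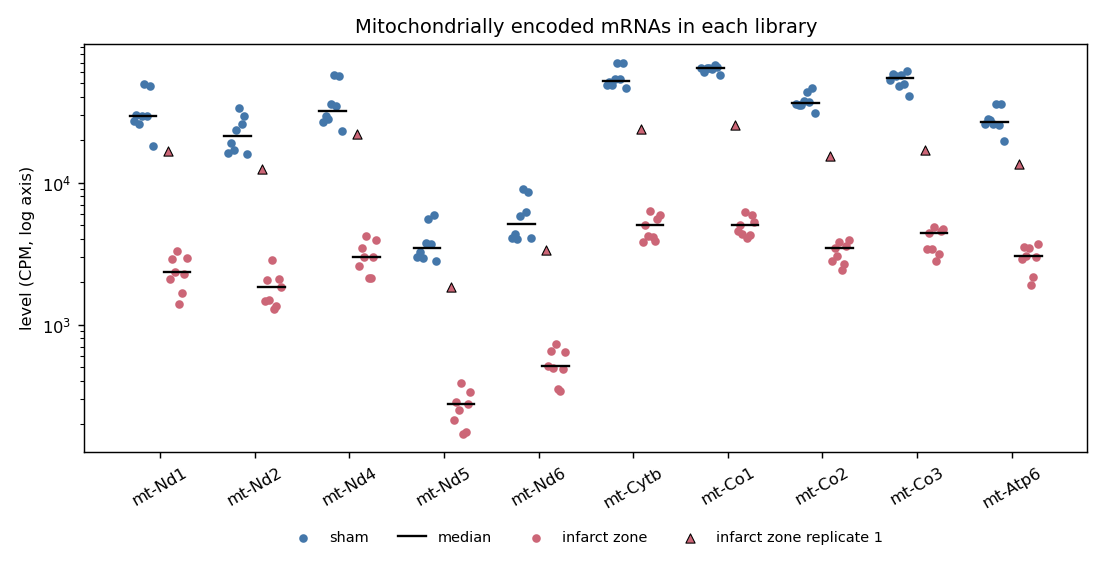
Level of each mitochondrially encoded mRNA in CPM (TMM-scaled, log axis), with 1 point per library (8 sham, 9 infarct zone), black lines at the group medians and infarct zone replicate 1 as a triangle. In all 10 columns every infarct zone point lies below every sham point, and the triangle lies between the groups, from 1851 CPM for mt-Nd5 to 25479 CPM for mt-Co1.

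The size of the fall depended on how libraries were scaled. With total counts alone in place of TMM, the all-feature median of the log2 fold change moved from 0.05 to 1.13 and that of the 10 mRNAs from -3.003 to -2.05. All 10 were still lower in the IZ. Under that scaling 85.7% of calls over all features were higher in the IZ, against 52.3% with TMM.

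Levels were compared between genes per length of the annotated gene, in CPM per kilobase, although a 3′ end method does not count in proportion to length. In sham the order of the mean levels per kilobase was mt-Co3 (67416), mt-Co2 (54996), mt-Cytb (48174), mt-Atp6 (41004), mt-Co1 (40843), mt-Nd1 (33572), mt-Nd4 (26418), mt-Nd2 (21663), mt-Nd6 (11087) and mt-Nd5 (2111). In 7 of the 9 neighbouring pairs of this order the upper gene was higher in all 8 libraries, although the ranges overlapped in 8 of the 9. mt-Atp6 was above mt-Co1 in 3 of 8 libraries, so these neighbours did not differ beyond their spread, and mt-Co1 was above mt-Nd1 in 6 of 8. mt-Nd5 was the only gene whose range lay clear of its neighbour's. The means over all 9 IZ libraries followed the same order from mt-Co3 (6818) to mt-Nd5 (240). Without IZ replicate 1, mt-Atp6 (4330) was above mt-Cytb (4254), and mt-Cytb was the higher of these neighbours in 5 of the 9 IZ libraries. With copies added, mt-Co1 rose in the sham order to 93686 CPM per kilobase, behind mt-Co3 (142520) and mt-Co2 (130854), and mt-Cytb moved to the fifth place. In the IZ with copies added, mt-Co2 (16044) was above mt-Co3 (14663) in 8 of 9 libraries, followed by mt-Atp6 (11667) and mt-Co1 (10672).

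To compare the mRNAs with one another without any library scaling, each was expressed as a share of the summed counts of the 10 in the same library. Each share was tested with an exact two-sided permutation test over the 24310 ways to assign the group labels, which gives 10 tests with unadjusted p-values. The 10 shares add up to 100%, so they are not independent of each other. In 2 of the 10, mt-Atp6 and mt-Co3, the groups differed under every alternative tried. For mt-Nd5 the call did not hold under all of them.

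The mt-Atp6 share rose from 8.26% ± 0.498 in sham (7.60% to 8.94%, median 8.40%) to 10.4% ± 1.13 in the IZ (8.91% to 11.8%, median 9.86%). In 8 of 9 IZ libraries it was above all sham libraries, the exception being replicate 1 (exact permutation p = 0.000247). With copies added it was 9.60% ± 0.606 in sham and 12.0% ± 1.37 in the IZ, and then all 9 IZ libraries lay above all 8 sham libraries (exact permutation p = 8.23e-05).

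The mt-Co3 share fell from 15.8% ± 1.83 in sham (13.6% to 18.2%, median 15.3%) to 13.7% ± 1.07 in the IZ (11.1% to 14.8%, median 13.9%). The groups overlapped, with 3 of 9 IZ libraries below all sham libraries (exact permutation p = 0.00547). With copies added it was 19.96% ± 1.74 in sham and 17.6% ± 0.953 in the IZ, with 7 of 9 IZ libraries below all sham libraries (exact permutation p = 0.000165).

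The mt-Nd5 share was 1.12% ± 0.154 in sham and 0.957% ± 0.131 in the IZ, where 5 of 9 libraries lay below all sham libraries (exact permutation p = 0.0309). With copies added the same comparison gave p = 0.0868 by the exact permutation test. For the remaining 7 mRNAs the exact permutation p ran from 0.0978 (mt-Nd6) to 0.966 (mt-Nd2). Leaving out single libraries took it as low as 0.0383 for mt-Nd6 and 0.0457 for mt-Cytb. Without copies, their largest differences between group means were -1.28 percentage points for mt-Co1 and 0.916 percentage points for mt-Cytb. Both were smaller than the SD of at least 1 group. With copies added, the exact permutation p of these 7 ran from 0.064 (mt-Co2) to 0.867 (mt-Nd2). The mt-Co2 difference was then 0.781 in place of 0.211 percentage points. That of mt-Cytb was 0.564 percentage points (exact permutation p = 0.0765).

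**Figure D4:**
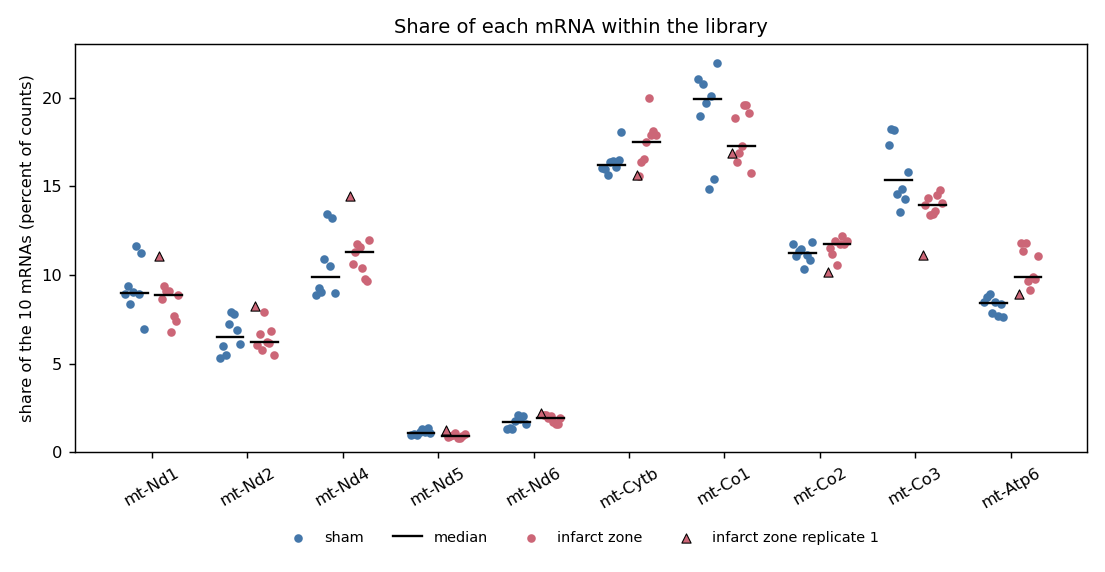
Share of each mRNA in the summed counts of the 10 mitochondrially encoded mRNAs of the same library, in percent, with 1 point per library, black lines at the group medians and infarct zone replicate 1 as a triangle. The infarct zone points of mt-Atp6 lie above the sham points except for the triangle, the mt-Co3 points lie lower in the infarct zone with overlap, and the other 8 mRNAs overlap.

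The mRNAs were then compared as log2 ratios of their counts within a library, for 6 pairs set from gene order, complex or strand, again with exact two-sided permutation tests and unadjusted p-values. Groups did not overlap in 2 of the 6. The first was mt-Co3 over mt-Atp6, neighbours on the genome whose transcripts are separated without a transfer RNA between them. The count ratio of mt-Co3 to mt-Atp6 in the sham libraries was 2.04, 2.08, 2.03, 1.85, 1.605, 1.94, 1.71 and 2.08 for replicates 1 to 8. In the IZ it was 1.25, 1.18, 1.27, 1.13, 1.39, 1.48, 1.47, 1.51 and 1.27 for replicates 1 to 9. The lowest sham library was above the highest IZ library, and replicate 1 was within the range of the other IZ libraries. On the log2 scale the mean ratio was 0.93 ± 0.14 in sham and 0.40 ± 0.15 in the IZ, a difference of -0.53 (exact permutation p = 4.11e-05, the smallest that these group sizes allow). With copies added the difference was -0.50, with the same p-value.

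The ratio of mt-Nd5 to mt-Nd4, both complex I genes of the same strand, also separated the groups. In sham it was 0.111, 0.111, 0.104, 0.105, 0.0974, 0.106, 0.104 and 0.121 for replicates 1 to 8. In the IZ it was 0.0847, 0.0821, 0.0820, 0.0833, 0.0923, 0.0798, 0.0825, 0.0934 and 0.0841 for replicates 1 to 9. All 9 IZ libraries lay below all 8 sham libraries, replicate 1 included. The mean log2 ratio was -3.22 ± 0.09 in sham and -3.56 ± 0.08 in the IZ, a difference of -0.34 (exact permutation p = 4.11e-05). With copies added the difference was -0.33. Where either mRNA ends relative to its annotated gene was not examined.

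The other 4 ratios did not pass 0.05. The mean log2 ratio of mt-Nd2 to mt-Nd1 was -0.50 in sham and -0.39 in the IZ (exact permutation p = 0.34). For mt-Co2 to mt-Co1 it was -0.76 and -0.64 (exact permutation p = 0.0973), and with copies added the difference was 0.14 with an exact permutation p of 0.0485. The ratio of mt-Nd6 to mt-Cytb, genes of opposite strands, was -3.32 and -3.19 (exact permutation p = 0.333). That of mt-Cytb to mt-Nd1 was 0.83 and 1.004 (exact permutation p = 0.242).

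**Figure D5:**
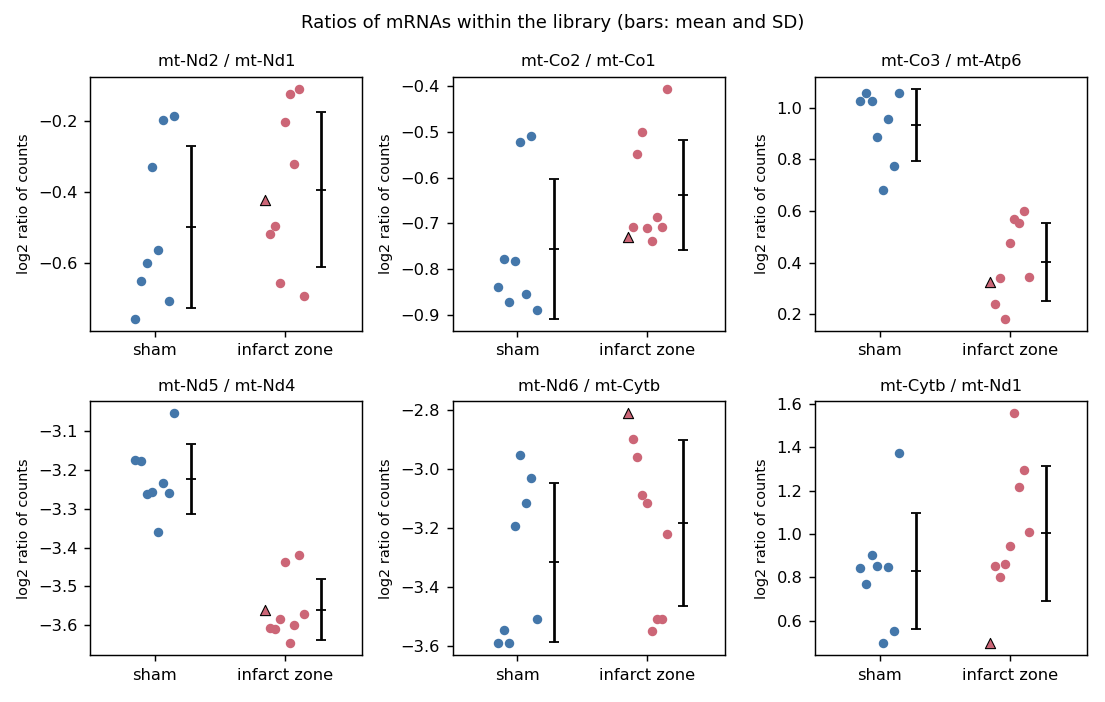
Log2 ratio of the counts of 6 pairs of mitochondrially encoded mRNAs, with 1 point per library (8 sham in blue, 9 infarct zone in red, infarct zone replicate 1 as a triangle) and bars for the mean and SD of each group. Only mt-Co3 over mt-Atp6 and mt-Nd5 over mt-Nd4 show groups that do not overlap, with mean differences of -0.53 and -0.34.

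The shares were also summed by complex, with no test of the sums. Complex I mRNAs held 29.2% ± 4.47 of the 10 in sham and 29.4% ± 3.56 in the IZ, and complex III 16.4% ± 0.731 and 17.3% ± 1.39. Complex IV held 46.2% ± 4.42 in sham and 42.9% ± 2.58 in the IZ, and complex V, which is mt-Atp6 alone, 8.26% and 10.4%. With copies added, complex IV held 62.1% ± 4.20 in sham and 59.0% ± 2.91 in the IZ, and complex I 18.5% ± 3.54 and 18.6% ± 2.85. Complex III then held 9.79% ± 0.553 and 10.4% ± 0.659, and complex V 9.60% ± 0.606 and 12.0% ± 1.37. The mean of complex V was thus above that of complex III in the IZ. Within each group the complex I share without copies differed more than between the groups. It was highest in sham replicates 5 and 7 (36.4% and 34.7%) and in IZ replicate 1 (37.3%), against 24.7% to 30.1% in the other sham libraries and 25.9% to 31.6% in the other IZ libraries. Sham replicates 5 and 7 were also the deepest sham libraries, with 3058589 and 4257919 counts, and had the highest percent of counts in the 10 mRNAs (26.9% and 26.2%). In the IZ the deepest library, replicate 2 (4738307 counts), had a complex I share of 28.3%, and replicate 1 had 2650935 counts. The part of depth in these shares was not tested.

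The nuclear genes for the same complexes were read from the same fit, from lists that hold the subunits of each complex. Over all tested features, 33.1% were called lower in the IZ and 36.3% higher. All 36 nuclear complex I subunits fell in the IZ, with a median log2 fold change of -2.53, from Ndufa5 (-3.17) to Ndufa7 (-1.51). All 4 subunits of complex II, which has no mitochondrially encoded part, fell with a median of -2.47, from Sdhb (-2.97) to Sdhc (-2.25). All 9 nuclear complex III subunits fell with a median of -2.60, from Cyc1, cytochrome c1 (-3.08), to Uqcr10 (-2.22). All 15 nuclear complex V subunits fell with a median of -2.53, from Atp5g3 (-2.99) to Atp5g2 (-1.10).

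Complex IV was the exception, with 12 of 14 nuclear subunits lower and a median of -2.56. The lowest was Cox7a1 (-3.94), the heart and muscle form of subunit 7a. Cox7a2, the other form of subunit 7a in the list, also fell (-2.22, SE 0.17, adjusted p = 7.85e-11 by edgeR's quasi-likelihood test). Cox6a1, the widely expressed form of subunit 6a, had a log2 fold change of 0.09 (SE 0.13, adjusted p = 0.551 by edgeR's quasi-likelihood test). Cox8a, the widely expressed form of its subunit, had -0.26 (SE 0.15, adjusted p = 0.121 by edgeR's quasi-likelihood test), and neither passed. Their heart forms, Cox6a2 and Cox8b, had log2 fold changes of -3.60 and -3.75.

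Within a library, mitochondrially encoded mRNAs were set against the nuclear ones of the same complex as a ratio of summed CPM. For complex I this ratio was 3.82 ± 1.42 in sham (2.30 to 6.40) and 2.34 ± 1.20 in the IZ (1.42 to 5.42), and for complex III 5.29 ± 1.005 (4.44 to 7.03) and 3.66 ± 0.829 (3.01 to 5.72). For complex IV it was 7.19 ± 0.711 (6.001 to 7.92) and 4.77 ± 0.809 (3.94 to 6.80), and for complex V 1.14 ± 0.231 and 0.924 ± 0.232. The groups overlapped in all 4. Without IZ replicate 1 the complex IV ratio reached at most 4.91 in the IZ and no longer overlapped with sham, and that of complex III reached 4.03, also below sham. Copy counts were not added in these ratios.

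Genes that serve the mitochondrial genome were read from 4 further lists, beside the same 33.1% lower and 36.3% higher over all tested features. Of 10 mitochondrial transcription genes, 7 passed the filter on low counts, 6 of these fell, with a median log2 fold change of -1.46. Polrmt, the mitochondrial RNA polymerase, fell by 1.46 and Tfam, which packages mitochondrial DNA and starts transcription, fell by 0.82 on the log2 scale. The lowest was Mterf2 (-2.95) and the highest Mterf4 (-0.41, adjusted p = 0.132 by edgeR's quasi-likelihood test).

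Of 20 genes for mitochondrial RNA processing and stability, 15 fell and 1 rose, with a median of -0.82. Lrpprc, which binds and stabilises mitochondrial mRNAs, was the lowest at -2.20, and its partner Slirp was at -0.61. Fastkd5, known for processing at junctions that lack a transfer RNA, was at -0.63 with an adjusted p of 0.04995 by edgeR's quasi-likelihood test, just under the threshold. Rexo2, a nuclease that clears very short RNAs, was the 1 that rose, at 0.56.

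Of 12 genes for mitochondrial DNA replication and maintenance, 8 fell and 2 rose, with a median of -0.59. Twnk, the Twinkle helicase, was the lowest (-1.76), and Primpol (0.91), a primase-polymerase, and Tk2 (0.52), mitochondrial thymidine kinase, were the 2 that rose. Of 11 genes for mitochondrial translation and membrane insertion, 10 passed the filter and 9 fell, with a median of -1.33, from Tufm (-1.99), an elongation factor, to Mtrf1l (-0.26), which did not pass. Every tested gene in these 4 lists had a log2 fold change closer to 0 than the -3.003 median of the 10 mRNAs, and the difference was not tested.

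The nuclear genes whose pattern was most like that of the 10 mRNAs were found by the SD, over the 17 libraries, of the log2 ratio of the gene to the summed 10. Among 8426 nuclear protein-coding genes that averaged 10 CPM or more, the median SD was 1.84. The smallest belonged to Eef1a2 (0.17), a translation elongation factor of muscle and neurons, Cyc1 (0.20), Lpl (0.21), lipoprotein lipase, Uqcrc1 (0.21), a complex III core protein, and Rbm24 (0.22), an RNA-binding protein of muscle. For comparison, the same SD of a member against the sum that contains it ran from 0.08 (mt-Co2) to 0.25 (mt-Nd6).

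Markers of the cell types in the tissue were read from the same fit, in which 33.1% of all tested features were called lower and 36.3% higher. All 10 cardiomyocyte markers fell, with a median log2 fold change of -3.32 and a summed level of 64675 to 79114 CPM in sham against 2941 to 30673 CPM in the IZ. The 10 ran from Tnni3, cardiac troponin I (-4.19), to Actc1, cardiac actin (-2.12), a span that includes the values of the 10 mitochondrially encoded mRNAs. IZ replicate 1, with the highest level of every mitochondrially encoded mRNA, also had the highest cardiomyocyte sum. Over the IZ libraries the log2 summed CPM of the 10 mRNAs and of these markers had a Pearson correlation of 0.95 (permutation p = 0.00347). Without replicate 1 it was 0.70 (permutation p = 0.0625), and over the 8 sham libraries -0.41 (permutation p = 0.294). These p-values are unadjusted. By percent of counts in place of CPM, sham replicate 5 was highest for the 10 mRNAs (26.9%), and it had the lowest cardiomyocyte sum (64675 CPM). Ryr2 and Actn2 were the markers closest in pattern to the mRNAs, at ranks 27 and 29 of the 8426 genes, and the other 8 lay between rank 239 (Tnnt2) and rank 1284 (Ckm).

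Markers of other cell types were mixed in direction, and some of these lists are short beside the 33.1% lower and 36.3% higher over all features. All 6 macrophage and monocyte markers tested rose, from Csf1r (2.31) to Cd68 (4.09). Itgam was not a row of its own. Of 7 fibroblast markers, 5 rose and 1, Gsn (-2.42), fell, and the summed level was 2158 to 3609 CPM in sham and 8518 to 13423 CPM in the IZ. All 3 tested neutrophil markers of 5 rose, 2 of 5 endothelial markers fell (lowest Kdr, -1.70), and of 5 smooth muscle and pericyte markers 3 fell (lowest Kcnj8, -1.80) and 2 rose (highest Tagln, 2.79). The 5 red blood cell markers had log2 fold changes from 0.10 (Hbb-bt) to 0.50 (Alas2), and none of them was called. No list had a marker at 0 throughout a group. The part of these cell types in the levels of the mRNAs was not tested.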

How the data were processed

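Total RNA of 8 sham LV and 9 IZ samples was sequenced by MACE. Per the labels and the study's methods, the authors trimmed reads with Cutadapt (v4.6), mapped them to mm10 (Bowtie2 is named in the processing notes), removed PCR duplicates by unique molecular identifiers and counted reads per gene with HTSeq. The deposited table holds raw counts, whole numbers without normalization, for 31647 features, of which 31554 matched GENCODE M21 (GRCm38), used here for names and sequences. The annotation release, the strand setting of the counting and the handling of multiply mapped reads are not given in the sources used here. There, 35 features were merged under joint names, 21 of them with an antisense prefix.

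IZ was compared with sham with edgeR (4.0.16, R 4.3.3) by the quasi-likelihood test with TMM scaling and filterByExpr (minimum count 10), with Benjamini-Hochberg adjustment over 12301 features and a threshold of 0.05. On simulated data with the library sizes of this comparison (12382 features, 200 changed, equally in both directions), 92% of changed features were recovered and 3.16% of calls were false. In the data 69.5% of tested features were called and the scaling mattered, so these rates do not carry over to it. DESeq2 (1.42.0) was an alternative. CPM are TMM-scaled. Shares and ratios were tested by exact permutation (computed with NumPy 2.4.6). Nuclear copies were found with BLAST (2.17.0) among annotated transcripts, and the genome itself was not searched.

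Replicates were separate mice. Within a group the smallest chi-square per degree of freedom between libraries was 2.56, so no library was counted as a repeat of another. Total counts ran from 1237675 to 4738307. Alternatives covered scaling, library sizes, filters, the test, single libraries left out, the replicate number as a block and copy counts added.

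The 10 mRNAs and all gene lists were chosen with earlier results of these data known. Named genes were the 10 members, other features of the mitochondrial chromosome, the nuclear copies, the highest and lowest gene of each list and the 5 nuclear genes most alike in pattern. Slirp, Fastkd5, Polrmt, Tfam, Cox6a2, Cox7a2, Cox8b, Cox8a, Ryr2, Actn2 and the genes that rose alone in their list were named after their values were seen.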

Additional observations from a re-analysis of the deposited data

Results flagged for a closer look

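A total of 54 groups of values were examined for a library far from the rest of its group, and 15 were found, where chance alone marks about 1 group in 20. The groups reuse the same libraries and counts and are not independent, so the 15 do not count as separate events. Most belonged to IZ replicate 1, which was the highest of the 9 IZ libraries for all 10 mRNAs by a gap of 0.845 to 0.897 of the group's whole range. Its levels were 16750 CPM for mt-Nd1 (next highest library 3288), 12490 CPM for mt-Nd2 (2857), 21851 CPM for mt-Nd4 (4176), 1851 CPM for mt-Nd5 (385) and 3373 CPM for mt-Nd6 (730). They were 23675 CPM for mt-Cytb (6327), 25479 CPM for mt-Co1 (6243), 15376 CPM for mt-Co2 (3949), 16852 CPM for mt-Co3 (4849) and 13465 CPM for mt-Atp6 (3682). The 10 mRNAs made up 15.9% of this library, and the next highest IZ library had 5.14%.

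The mix of the mRNAs in IZ replicate 1 stood apart in 2 of them. The mt-Nd4 share was 14.5% (next highest IZ library 12.0%) and the mt-Co3 share was 11.1% (next lowest 13.4%). In sham replicate 8 the mt-Cytb share was 18.04% (next highest sham library 16.5%) and the log2 ratio of mt-Cytb to mt-Nd1 was 1.37 (next highest 0.90).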

How the results depend on the processing

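All 10 mRNAs were called lower in the IZ under each of the 27 alternatives, with log2 fold changes between -3.92 and -1.79. The number of called features was 8544, within 1.5 times of this in 26 alternatives, and 5239 of 6734 when a mean of 50 counts was required, since fewer features were tested. With copies added, a choice made after seeing the data, the difference in percent of the library was -28.9 percentage points in place of -17.3. DESeq2's Wald test called 10328 of 27668 features. Leaving out IZ replicate 1 moved the median log2 fold change of the 10 to -3.64. The mt-Atp6 and mt-Co3 shares and the ratios of mt-Co3 to mt-Atp6 and of mt-Nd5 to mt-Nd4 kept their calls throughout. The mt-Nd2 share, at a difference of 0.02 percentage points (exact permutation p = 0.966), changed sign with copies added (-0.067), with medians (-0.276), on the log2 scale against the geometric mean (-0.0051) and when single libraries were left out (-0.188 to 0.206). The mt-Nd5 share missed 0.05 in 7 alternatives: with copies added, under the replicate block and without sham replicates 5 or 7 or IZ replicates 2, 6 or 7 (exact permutation p from 0.00528 to 0.0659 over the libraries left out). The ratio of mt-Co2 to mt-Co1 passed 0.05 in 3, the mt-Nd6 share in 2 (without sham replicate 5, and against the geometric mean) and the mt-Cytb share in 1 (without sham replicate 8). The causes were not tested. Same-numbered samples of the groups did not vary together (r from -0.25 to 0.15), so the numbers were not taken as pairs. With the replicate block, 8078 features and all 10 mRNAs were called, and the median of the 10 was -3.36. The lowest count of any of the 10 mRNAs in a library was 326, and the part of depth in their levels and shares was not tested.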

Other observations

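The other features of the mitochondrial chromosome were described relative to the summed counts of the 10 mRNAs in the same library, with no test, since they were picked after their values were seen. All 37 features were lower in the IZ in edgeR's quasi-likelihood test. The light strand, which encodes mt-Nd6, also carries 8 transfer RNAs, and all 8 had a higher mean relative to the mRNAs in the IZ, as did 12 of the 14 transfer RNAs on the other strand. In 7 of the 8, at least 6 of the 9 IZ libraries lay above all sham libraries, against 1 of those 14, and this difference between the strands was not tested. The strand setting of the counting is not given in the sources used here. Whether counts of light strand features, mt-Nd6 included, hold reads of the other strand is therefore not known. mt-Tp went from 0.109 ± 0.0257 counts per 100 mRNA counts in sham (0.0719 to 0.140) to 0.471 ± 0.151 in the IZ (0.153 to 0.638), and all 9 IZ libraries were above all sham libraries. mt-Tq went from 2.57 ± 1.11 to 8.82 ± 3.91, with 8 of 9 IZ libraries above all sham libraries.

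mt-Ti, which overlaps mt-Tq by 3 bases on the other strand, went the other way. It had 0.328 ± 0.0614 counts per 100 mRNA counts in sham and 0.128 ± 0.0359 in the IZ, and all 9 IZ libraries lay below all sham libraries. mt-Nd3, a complex I mRNA outside the 10, had 2.60 ± 0.114 in sham and 2.34 ± 0.0823 in the IZ, with 8 of 9 IZ libraries below all sham libraries. The ribosomal RNA mt-Rnr1 had 1.73 ± 0.221 and 2.38 ± 0.517, with 5 of 9 IZ libraries above all sham libraries. What counts of transfer and ribosomal RNAs stand for in a method that primes on poly(A) was not tested.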
